A study of Mus musculus with 17 samples.

Results

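Radial glia are the stem and progenitor cells that line the ventricle of the developing cortex, and they give rise to neurons either directly or through basal progenitors, which divide away from the ventricle. Prominin, the membrane protein encoded by Prom1, sits on protrusions of the apical membrane, so sorting for it is used to enrich cells that still contact the ventricle. Antibody staining reads the protein at the cell surface, whereas the arrays read RNA.

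The data described here compare GFP-high cells from embryonic day 14 (E14) cortex that were sorted with a Prominin gate and without one. Members were chosen by the sample titles: 4 arrays whose titles name Prominin+ (gated) and 3 whose titles do not (ungated), 7 of the 17 arrays of the series. All were cells sorted by flow cytometry from the cortex of hGFAP-eGFP mice, in which a human GFAP promoter drives the fluorescent protein, so "GFP-high" describes the activity of that transgene and not of the mouse Gfap gene. Both groups therefore share age, tissue, transgene and the GFP gate. The titles of the ungated arrays say nothing of Prominin, so they may hold cells with and without it. The labels do not give the strain background, the number of embryos pooled or whether samples came from separate litters. The p-values therefore reflect how far these arrays scatter, and that scatter may be technical only. The other 10 arrays hold E14 GFP-low cells, gated (n = 3) and ungated (n = 3), and gated GFP-positive cells of embryonic day 18 (E18, n = 4).

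The preparations differed together with the gate. The labels give the MessageAmp II labelling kit for the 4 gated arrays and ungated replicate 1, and an Affymetrix kit for ungated replicates 2 and 3. The 18S rRNA control signal was 2446 to 5192 in the gated arrays and 179 to 427 in the ungated ones. The 3′ signal of the Gapdh control exceeded the 5′ signal by 0.54 to 1.71 on the log2 scale in the gated arrays, whereas in the ungated arrays the difference was −0.21 to −0.19. The poly-A control dap, which is added to RNA before labelling, gave 4085 in gated replicate 1, 4.53 to 22.3 in the other gated arrays and 788 to 1249 in the ungated ones. Ungated replicate 1 lay with the other ungated arrays in all 3 controls although it shared the kit of the gated arrays, and the E18 arrays, also gated and labelled with that kit, had 18S signals of 302 to 583. Across the 18193 genes, ungated replicate 1 correlated with ungated replicates 2 and 3 as they did with each other (r = 0.967, 0.967 and 0.966), and gated with ungated arrays at r = 0.929 to 0.960. The gate and whatever part of preparation these controls reflect cannot be told apart in this design.

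**Figure D1:**
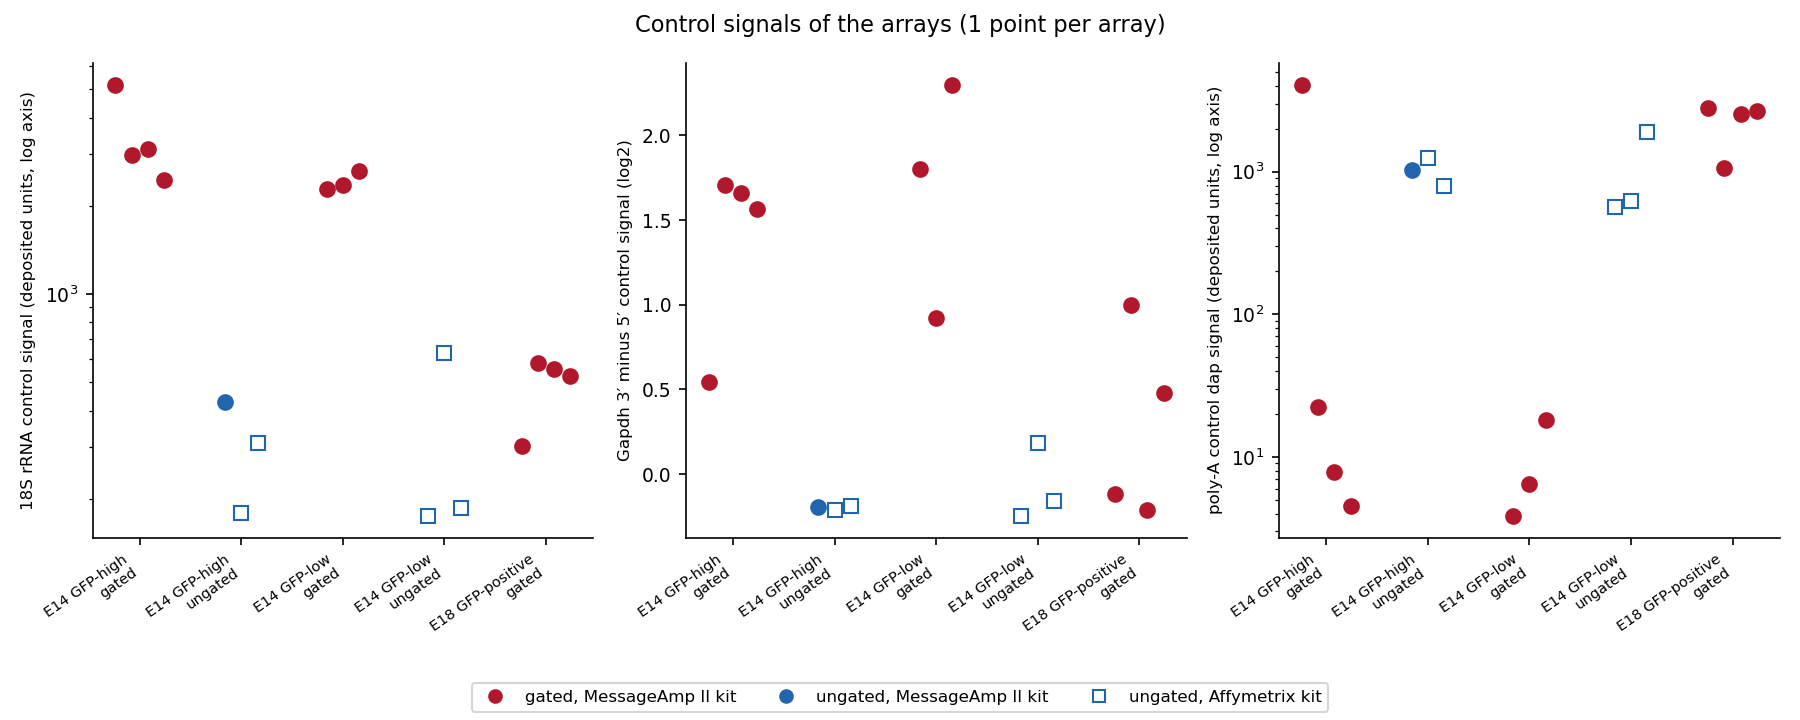
Control signals of the 17 arrays by group, 1 point per array: 18S rRNA (left, log axis), the log2 difference of the 3′ and 5′ Gapdh signals (middle) and the poly-A control dap (right, log axis). Filled symbols mark the MessageAmp II kit and open squares the Affymetrix kit; gated E14 arrays have 18S signals from 2292 to 5192 and all other arrays from 175 to 627.

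Levels below are log2 intensities after a pseudocount of 16 was added and arrays were normalised by quantiles, with the mean ± SD of each group; the median gene had a level of 6.29. Differences are gated minus ungated with their standard error (SE), and adjusted p-values are from limma with Benjamini-Hochberg adjustment over all 18193 genes. A gene counts as changed at an adjusted p under 0.05. This is read from 1 probe set a gene, and the other probe sets of a named gene were not always called. A group mean at or under 5.68, the 90th percentile of 34 genes not thought to be used in this tissue, is not shown to be above background, and no fold is given against it. Each value with the kit as a term in the fit is in effect the gated arrays against ungated replicate 1. With 1 ungated array the SE tends to be larger, so a call lost there does not by itself show a smaller difference.

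The gated arrays differed from the ungated ones in 3793 genes, 20.8% of those tested, with 1987 higher (10.9%) and 1806 lower (9.93%), and 1350 of the changes were at least 2-fold. The median difference over all genes was −0.01. The 4 gated and 3 ungated arrays did not overlap in 5546 genes, 30.5% of all. With the kit as a term 1737 genes were called, 944 higher (5.19% of all genes) and 793 lower (4.36%); 1550 of these were called in the same direction without the term and 0 in the opposite direction. Both fits share the gated arrays and ungated replicate 1, so their agreement in direction is no independent check. With the log2 difference of the Gapdh signals as a covariate, a setting chosen after the data were seen, 1705 genes were called. Some lists described below kept their direction with fewer calls: 7 lower and 1 higher for radial glia, 11 lower for S phase, 12 lower for G2 and M phase, 10 higher for postmitotic neurons and 2 higher for interneurons. The median of the basal progenitor list changed its sign, from −0.13 to 0.23.

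Prom1 RNA did not differ between the sorts beyond the spread of the arrays. The gated arrays read 10.86, 10.78, 10.95 and 11.02 and the ungated arrays 10.86, 10.80 and 10.78, so the groups overlapped. The difference was 0.09 ± 0.15 (SE; adjusted p = 0.756). Gfap, whose human promoter drives the transgene, was not above the level limit in either sort on average (5.42 ± 0.27, n = 4, against 5.60 ± 0.38, n = 3). Eomes, the T-box factor that marks basal progenitors, was 12.01 ± 0.06 in gated and 12.14 ± 0.07 in ungated cells (adjusted p = 0.703). Tubb3, the neuronal tubulin, was 10.39 ± 0.18 and 10.71 ± 0.19 (adjusted p = 0.294). A p above the threshold does not show that levels were equal.

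Genes of radial glia were called lower in the gated sort far more often than higher. Of 24 genes on the radial glia list, all with a level above the limit in at least 1 group, 12 were lower, 1 was higher and 11 did not pass the test, with a median difference of −0.67 (−0.70 with the kit as a term, where 8 were lower and 0 higher). The mean level of the list was 9.0 to 9.28 in the gated arrays and 9.81 to 9.98 in the ungated ones, 9.98 of these in ungated replicate 1. In sorted bulk RNA, fewer cells of a type and less RNA per cell cannot be told apart.

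Fabp7, the brain lipid-binding protein of radial glia, read 11.23, 11.40, 11.55 and 11.82 in the gated arrays and 13.59, 12.98 and 13.51 in the ungated ones. Every gated array was below every ungated one, and the difference of −1.86 ± 0.20 is a 3.63-fold lower level (adjusted p = 9.9e-06). Ednrb, the endothelin receptor B, read 7.43, 7.68, 7.99 and 8.18 against 9.91, 9.76 and 9.74, again without overlap (3.96-fold lower, adjusted p = 1.03e-05). Nr2e1, the nuclear receptor Tlx that sustains neural stem cells, was 3.49-fold lower (8.55 ± 0.16 against 10.36 ± 0.24, adjusted p = 1.3e-05, 1 of 2 probe sets called).

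Pax6, the transcription factor that directs cortical radial glia towards neurogenesis, read 9.58, 9.61, 9.93 and 10.30 with the gate and 10.83, 10.86 and 11.10 without it. The groups did not overlap (2.11-fold lower, adjusted p = 0.00308), but the call was lost with the kit as a term (adjusted p = 0.0920, difference −0.97). Sox2, a stem cell factor, differed by −1.58, and Vim, the intermediate filament vimentin, by −0.88, both past the threshold, with the call of Vim lost with the kit as a term (adjusted p = 0.131). Slc1a2, a glutamate transporter, was the only member called higher. Its ungated level was at background, and its call was lost with the kit as a term and without any 1 of gated replicates 1 and 3 and ungated replicates 2 and 3. Slc1a3, the glutamate and aspartate transporter Glast, gave no call with the probe set used (8.23 ± 0.42 against 8.31 ± 0.49, adjusted p = 0.913), yet 4 of its 6 probe sets were called lower.

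The transcription factor Tfap2c (AP2γ), which acts in basal progenitors, was 8.99 ± 0.17 with the gate and 9.97 ± 0.21 without it (1.98-fold lower, adjusted p = 0.0144). That call was lost with the kit as a term and without ungated replicate 1. The difference was −0.98 in the main fit and −1.19 with the kit as a term.

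**Figure D2:**
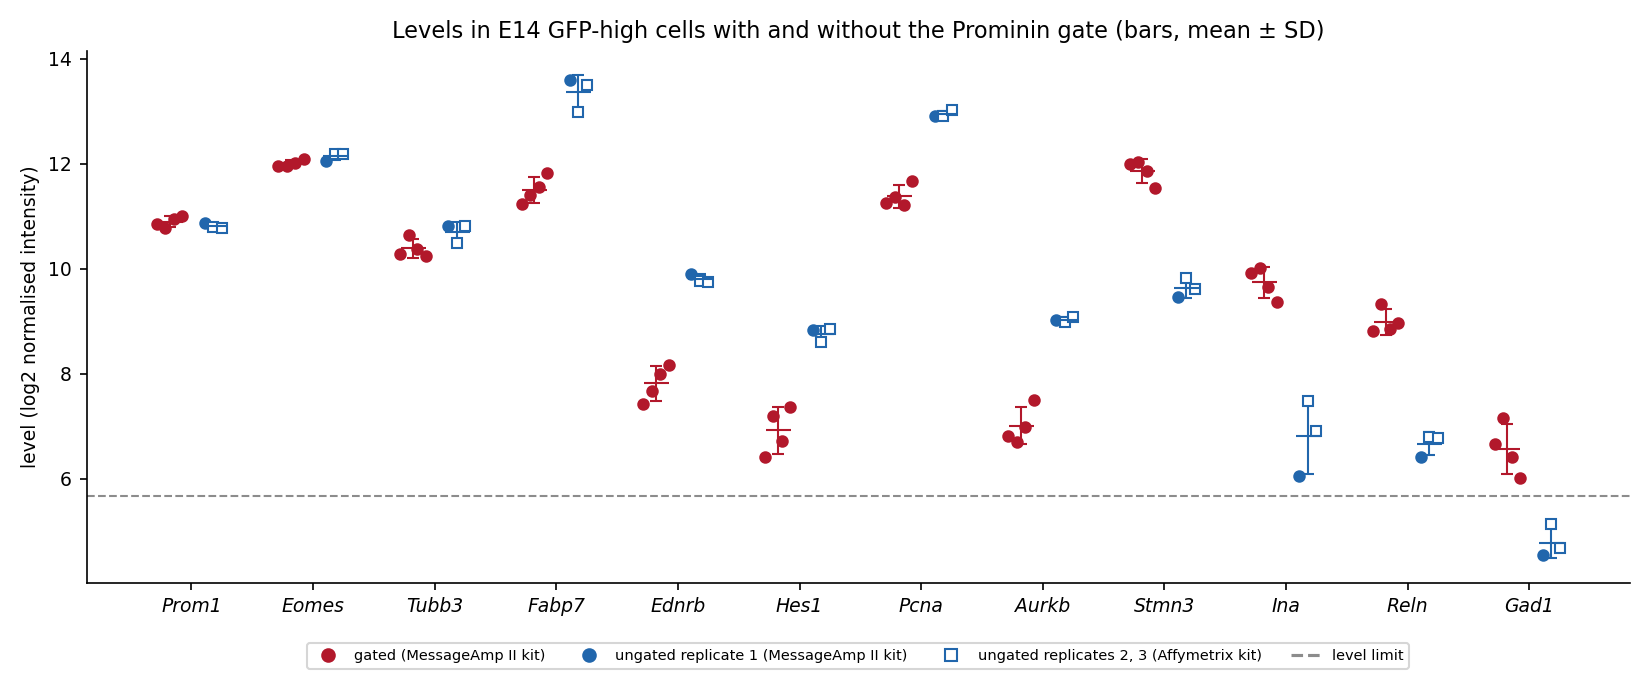
Level (log2 normalised intensity) of 12 genes on each of the 7 arrays, with bars at the mean ± SD of the 4 gated and 3 ungated arrays; filled blue points are ungated replicate 1, which has the kit of the gated arrays, and the dashed line is the level limit of 5.68. Prom1 overlaps between the groups, while Fabp7, Ednrb, Hes1, Pcna and Aurkb lie lower and Stmn3, Ina, Reln and Gad1 higher in every gated array.

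Genes on the S phase list and on the G2 and M phase list were lower as a group, and none of them was called higher. A separate list of replication histones was not lower, but only 4 of its 17 genes were measured, too few to describe the list. Of these 4 genes 1 was higher (H1f2, difference 0.72), 0 lower and 3 not called, with a median of 0.30. In GFP-low cells 2 were higher and 0 lower with the gate (median 0.57). Of 23 S phase genes 15 were lower and 0 higher (median −0.96; 10 lower with the kit as a term), and of 23 genes of G2 and M phase 17 were lower and 0 higher (median −1.10; 10 lower with the kit as a term). Of all genes tested, 9.93% were lower. Pcna, the sliding clamp of DNA polymerase, read 11.25, 11.37, 11.22 and 11.68 with the gate and 12.91, 12.91 and 13.02 without it. The groups were more than 1 log2 unit apart (2.97-fold lower, adjusted p = 2.68e-06). The helicase subunits Mcm6 and Mcm4 were 2.93-fold and 3.18-fold lower (adjusted p = 3.9e-05 and 9.64e-05). For Mcm6 1 of 3 probe sets was called. Uhrf1, which keeps DNA methylation through replication, differed by −2.0.

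Aurkb, the kinase of the chromosomal passenger complex, read 6.82, 6.71, 7.00 and 7.51 with the gate and 9.02, 8.98 and 9.08 without it. It was 4.05-fold lower, with no overlap (adjusted p = 3.28e-05). Aurka, the kinase of spindle poles, was 3.06-fold lower (8.13 ± 0.21 against 9.74 ± 0.14, adjusted p = 1.92e-05, 1 of 2 probe sets called). Cdk1, the kinase that drives entry into mitosis, was 2.76-fold lower (9.50 ± 0.17 against 10.97 ± 0.18, adjusted p = 3.28e-05). The spindle assembly factor Tpx2 was 2.73-fold lower, with 2 of its 4 probe sets called. Cdc20 and Ccnb2, an activator of the anaphase complex and a mitotic cyclin, did not follow, with differences of −0.00 and −0.12.

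The promoters of the G2 and M phase list, with 17 of its 23 genes called lower, were read from a RefSeq table for GRCm38.p6. It gives 300 bases a start, 250 before and 50 after it. The motif counts cover all list members found, called or not, so they describe the lists and not the gate contrast. Called and uncalled members were not compared. Entries were found for 19 of the 23 genes, with 20 windows. CCAAT, on either strand, stood in 18 of the 20 windows (90%) against 37.4% of all 32851 windows, and TTTGAA, on either strand, in 16 (80.0%) against 17.9%. Among the 22 genes of postmitotic neurons, 18 windows of 14 genes were found, with CCAAT in 50% and TTTGAA in 22.2%. For the S phase list, 21 windows of 18 genes were found, and TTTCCCGC or TTTGGCGC, on either strand, stood in 6 (28.6%) against 1.56% of all windows. In the same S phase windows CCAAT stood in 61.9% and TTTGAA in 14.3%. Overlaps between motifs were not looked for, and a match describes letters, not a bound site. The 200 bases before the start are shown for the 2 genes with the lowest p on the G2 and M phase list that the table holds, with both motifs in capitals on either strand. Aurka lies at chr2:172370571-172370770 (minus strand) and Cdk1 at chr10:69352913-69353112 (minus strand).
Aurka: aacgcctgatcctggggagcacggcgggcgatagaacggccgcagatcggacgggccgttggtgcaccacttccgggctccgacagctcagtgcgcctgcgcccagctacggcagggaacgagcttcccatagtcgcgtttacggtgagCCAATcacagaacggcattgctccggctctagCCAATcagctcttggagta
Cdk1: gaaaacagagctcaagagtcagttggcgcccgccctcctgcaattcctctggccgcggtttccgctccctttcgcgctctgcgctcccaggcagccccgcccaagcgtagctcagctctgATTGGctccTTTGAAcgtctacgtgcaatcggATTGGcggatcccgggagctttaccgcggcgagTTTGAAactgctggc
The Aurka stretch holds CCAAT at 2 places, and the Cdk1 stretch holds CCAAT, as its reverse ATTGG, at 2 places and TTTGAA at 2.

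Genes of postmitotic neurons were higher in the gated sort. Of 22 genes measured 13 were higher, 0 lower and 9 did not pass the test, with a median difference of 0.73 (0.79 with the kit as a term, where 10 were higher). The mean level of the list was 9.25 to 9.47 in the gated arrays and 8.30 to 8.53 in the ungated ones. Stmn3, a stathmin that binds tubulin, read 11.99, 12.04, 11.87 and 11.54 with the gate and 9.46, 9.83 and 9.61 without it. The arrays did not overlap (4.68-fold higher, adjusted p = 5.23e-07, both probe sets called). Rtn1, a reticulon of neuronal endoplasmic reticulum, was 4.28-fold higher (11.27 ± 0.22 against 9.17 ± 0.15, adjusted p = 1.65e-06).

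Ina, the neuronal intermediate filament internexin, read 9.91, 10.02, 9.66 and 9.37 against 6.06, 7.49 and 6.90. Its ungated arrays spread more than its gated ones, and the lowest was ungated replicate 1 with the shared kit (7.58-fold higher, adjusted p = 2.13e-06). Stmn2, another stathmin, was 4.75-fold higher and Mapt, the microtubule protein tau, 1.88-fold higher (adjusted p = 3.71e-06 and 0.00460). The call of Mapt was lost when gated and ungated replicates 1 were left out together (adjusted p = 0.0715), a setting chosen after the data were seen. Syt1, the calcium sensor of synaptic vesicles, differed by 1.82 and Bcl11b, a factor of deep-layer neurons, by 1.39, both past the threshold. Dcx, which marks migrating neurons, was called with a difference of 0.75, but 2 of its 4 probe sets were called lower. Tubb3, Map2, Neurod6 and Tbr1, also on this list, had differences of −0.32, −0.34, −0.17 and −0.07 and were not called.

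Among genes of other neuron types, Reln, the secreted guide protein of Cajal-Retzius cells, read 8.81, 9.33, 8.85 and 8.96 with the gate and 6.41, 6.81 and 6.77 without it. It was 5.01-fold higher without overlap (adjusted p = 1.33e-05), with 1 of 2 probe sets called. On that list of 9 genes only 4 had a level above the limit in at least 1 group. Reln and Cacna2d2, a calcium channel subunit, were the only ones called. The call of Cacna2d2 was lost with the kit as a term and without ungated replicate 3. Calb2, Lhx1 and Ebf3 differed by 0.11, −0.19 and 0.02. Of 14 interneuron genes, 8 of them above the limit in at least 1 group, 7 were higher and 0 lower. The median was 0.87 (1.05 with the kit as a term). Gad1, which makes GABA, read 6.66, 7.16, 6.42 and 6.02 with the gate and 4.55, 5.13 and 4.68 without it (adjusted p = 0.000172, 1 of 2 probe sets called). Dlx1, a transcription factor of the ventral forebrain, was 6.07 ± 0.37 against 4.45 ± 0.56. Sst, the peptide somatostatin, was 6.70 ± 0.36 against 5.03 ± 0.46 (adjusted p = 0.00502). Sst lost its call with the kit as a term, where its difference was 1.87 (1.67 in the main fit). The ungated levels of these 3 genes were at background.

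Marker lists of endothelium, oligodendrocytes, red cells, microglia and pericytes with meninges were near the limit in both sorts. Called genes numbered 0 of 16 for endothelium, 0 of 10 for the oligodendrocyte lineage and 0 of 9 for red cells, 1 of 16 for microglia (lower) and 2 of 17 for pericytes and meninges (1 each way). Mean levels of these 5 lists ran from 4.82 to 5.56 in the gated and from 4.90 to 5.59 in the ungated arrays. For the choroid plexus and cortical hem list, 1 of 15 was called, Rspo3, a secreted enhancer of Wnt signalling (6.35 ± 0.24 against 5.06 ± 0.50, adjusted p = 0.000399, 1 of 2 probe sets called).

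Of 19 basal progenitor genes 5 were lower and 1 higher, with a median of −0.13 that turned to 0.23 with the Gapdh covariate. Insm1, a zinc finger factor that promotes the formation of basal progenitors, read 8.99, 9.09, 9.41 and 10.02 with the gate and 11.96, 11.19 and 11.57 without it. It was 4.58-fold lower without overlap (adjusted p = 2.01e-05). Btg2, an antiproliferative gene of progenitors about to make neurons, was 1.78-fold lower (adjusted p = 0.00106, 1 of 2 probe sets), and Dll1, a Notch ligand, 1.77-fold lower (adjusted p = 0.00513, lost with the kit as a term at 0.122). The only member called higher was the opioid precursor Penk (6.77 ± 0.10 against 5.55 ± 0.37, the latter at background). Its call was lost without ungated replicate 1.

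Signalling genes were called in both directions, where 9.93% of all genes were lower and 10.9% higher. In the Notch list, whose receptors keep radial glia from differentiating, 6 of 22 were lower and 3 higher, the latter near that share. The effector Hes1 read 6.41, 7.20, 6.71 and 7.37 with the gate and 8.83, 8.60 and 8.86 without it, a 3.58-fold lower level with no overlap (adjusted p = 6.71e-05). Lfng, a glycosyltransferase that modifies Notch, was 2.98-fold lower (adjusted p = 0.000140), and the receptor Notch2 was 2.82-fold lower (adjusted p = 0.00144; 0.0567 with the kit as a term). Dner, a neuronal ligand of Notch, was 2.51-fold higher (adjusted p = 0.000100), while Notch1 differed by 0.28 and was not called. For Notch2 and Dner 1 of 2 probe sets was called.

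In the Wnt list 6 of 24 were lower and 4 higher. The receptor Fzd8 was 3.49-fold lower and the ligand Wnt7a 2.80-fold lower (adjusted p = 2.69e-05 and 3.65e-05). For Fzd8 1 of 2 probe sets was called, and for Wnt7a 1 of 3. Dact1, an intracellular modulator, was 2.55-fold higher (adjusted p = 0.000124). In the list of FGF and hedgehog genes 8 of 21 were lower and 1 higher, the latter under the 10.9% of all genes. The FGF target Etv5 was 2.99-fold lower and the receptor Fgfr3 2.50-fold lower (adjusted p = 0.000282 and 0.00150), whereas Dusp6, a phosphatase that FGF signalling induces, was higher (6.77 ± 0.48 against 5.52 ± 0.13, the latter at background; adjusted p = 0.00314, lost with the kit as a term at 0.0706). Of 14 pallial patterning genes 6 were lower and 1 higher (median −0.55). Emx2, which sets the size of caudal and medial cortex, and Nr2f1, a nuclear receptor of caudal cortex, were 2.37-fold and 2.55-fold lower (adjusted p = 0.000993 and 0.000445).

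Genes of the apical junction and of polarity, which hold radial glia together at the ventricle, were lower more often than higher, with 7 of 23 lower, 1 higher and a median of −0.34. With the kit as a term 2 were lower and 0 higher. Cdh2, the N-cadherin of these junctions, read 9.22, 10.02, 10.20 and 10.44 with the gate and 11.69, 11.32 and 11.57 without it. It was 2.94-fold lower without overlap (adjusted p = 0.000200), but it also belongs to the genes, described below, that were lower in all gated E14 arrays than in all others. The tight junction scaffold Tjp1 was 1.85-fold lower (adjusted p = 0.00323; 0.0777 with the kit as a term). The atypical kinase gene Prkcz, the only member called higher, was 1.78-fold higher (adjusted p = 0.00875) and lost its call with the kit as a term (0.143) and without ungated replicate 3. In the primary cilium list 4 of 28 were higher and 3 lower, near the 10.9% and 9.93% of all genes, among them the transport subunits Ift20, 2.06-fold higher, and Ift80, 1.98-fold lower.

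**Figure D3:**
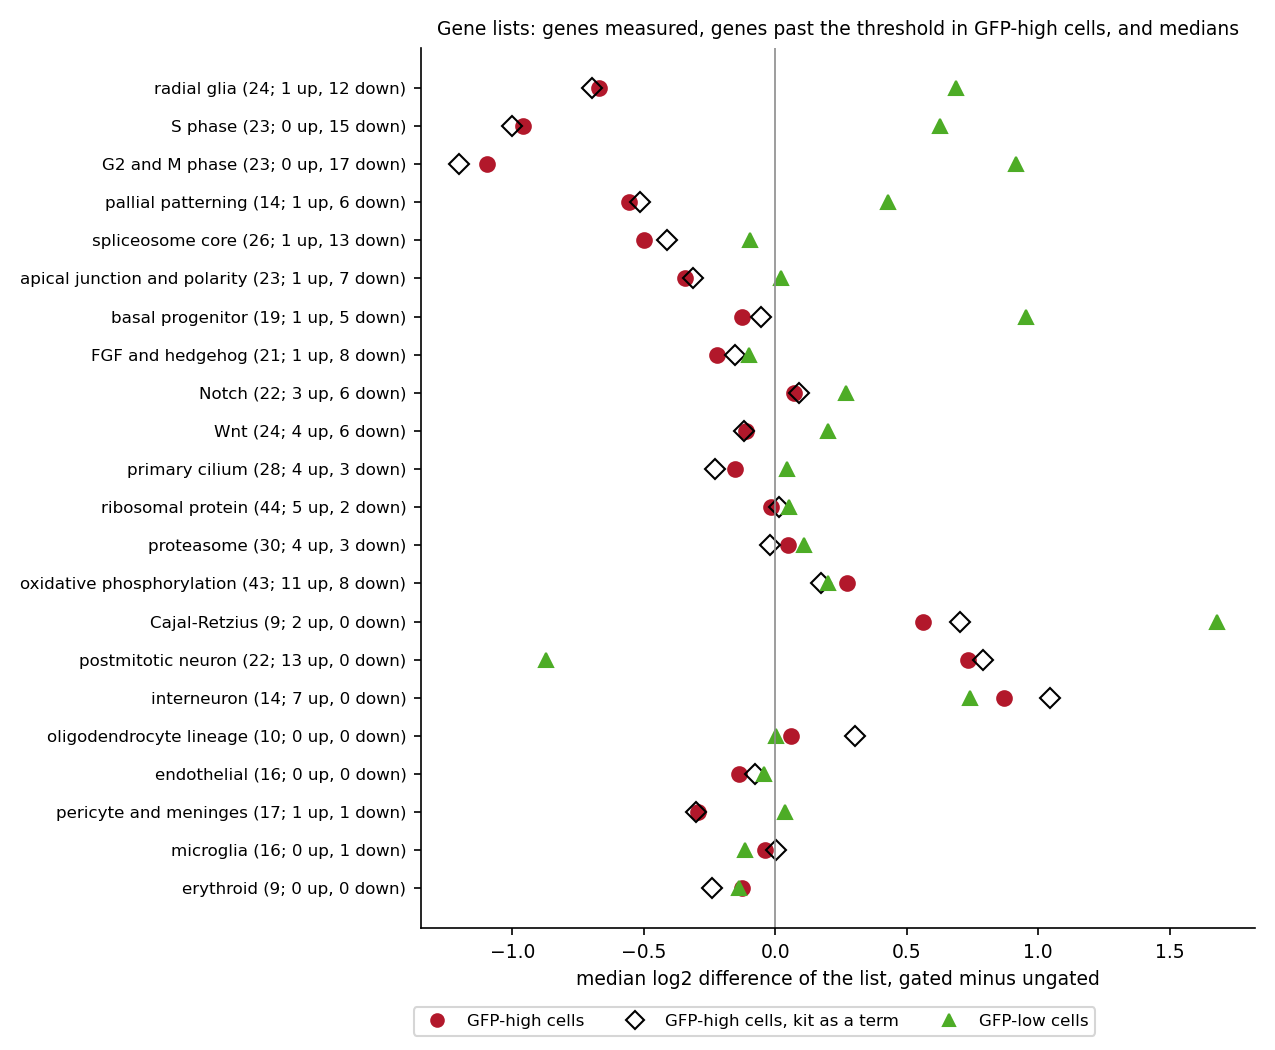
Median log2 difference, gated minus ungated, of 22 gene lists in GFP-high cells (circles), in GFP-high cells with the kit as a term (diamonds) and in GFP-low cells (triangles), with the genes measured and those past the threshold in GFP-high cells beside each name. Circles and diamonds, which rest on shared arrays, lie close together for most lists. Triangles lie on the other side of 0 for radial glia (−0.67 against 0.69), S phase, G2 and M phase and postmitotic neurons (0.73 against −0.87).

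Among called genes whose arrays did not overlap and whose higher mean exceeded the median gene, several of the largest differences were in genes on none of the lists, although Ina and the ribosomal protein gene Rpl27a also ranked among the largest rises. Zfp612, a zinc finger gene, read 9.31, 8.84, 8.58 and 8.53 with the gate and 4.36, 6.03 and 5.78 without it (adjusted p = 3.85e-06, 1 of 2 probe sets called). The microtubule protein gene Map1b was 9.52-fold higher, with 1 of 3 probe sets called (adjusted p = 5.8e-05), and Runx1t1, a transcriptional corepressor, was 8.04 ± 0.38 against 5.38 ± 0.49, with 5 of 6 probe sets called. Pdia3, a disulfide isomerase, read 6.52, 7.18, 7.59 and 7.75 against 10.79, 10.62 and 10.91, an 11.4-fold lower level (adjusted p = 3.85e-06). Mta2, a subunit of the NuRD chromatin complex, was 9.37-fold lower and Alyref, an mRNA export factor, 8.73-fold lower (adjusted p = 3.9e-06 and 2.04e-05). For Pdia3 and Alyref 1 of 2 probe sets was called.

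Some of these differences moved with the control signals across GFP levels. In 707 genes, 3.89% of all, the 7 gated E14 arrays, which have the high 18S signals, lay on one side of the other 10 arrays, and 624 of these were among the genes called here in that direction (350 higher and 274 lower, 16.5% of the called genes). Pdia3, Alyref, Cdh2 and Ptprz1, a receptor phosphatase on the radial glia list, were lower in all 7. Whether the gate or the preparation underlies them was not tested, and the E14 arrays cannot tell these apart. Core spliceosome genes hold 5 such members of 26. That list had 13 lower and 1 higher (median −0.50), with Snrpd3, a core protein of small nuclear particles, 3.06-fold lower and U2af1, which binds the 3′ splice site, 2.81-fold lower (adjusted p = 1.89e-05 and 3.33e-05). For Snrpd3 another probe set was called higher. Radial glia genes hold 1 such member of 24, and S phase, G2 and M phase, postmitotic neuron and interneuron genes hold 0. Over all genes the share was 3.89%. Mean levels of the G2 and M phase list were 8.84 to 9.14 in gated GFP-high arrays. They were 10.03 to 10.06 in ungated GFP-high and 7.03 to 7.81 in ungated GFP-low arrays. Where gated arrays lie between the ungated groups, a count of 0 cannot tell whether preparation moved the list. The 0 of the interneuron list cannot tell this either, as the other 10 arrays include E18. Gad1 and Dlx1 had means of 9.67 and 10.16 at E18, above both gated E14 groups. Within E14, mean levels of the interneuron list were 5.58 to 6.07 in gated GFP-high and 5.90 to 6.31 in gated GFP-low arrays. In the ungated arrays they were 4.88 to 5.07 (GFP-high) and 5.09 to 5.50 (GFP-low).

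Of 21 immediate early genes, which cells induce under stress, 4 were lower and 2 higher, where 9.93% and 10.9% of all genes were. Jun, a subunit of the AP-1 factor, read 8.98, 8.68, 9.0 and 9.02 with the gate and 11.64, 11.33 and 11.54 without it (6.0-fold lower, adjusted p = 0.000314, 1 of 2 probe sets called). Its relative Jund was 3.57-fold higher (adjusted p = 2.27e-05, also 1 of 2 probe sets called). Ccn1, a secreted matrix protein induced by growth factors, was 4.74-fold lower (adjusted p = 2.4e-06, 2 of 4 probe sets called), and Fos differed by 0.46 without a call. Xist, the RNA that silences 1 X chromosome in female cells, was 3.81-fold higher with the gate (11.03 ± 0.16 against 9.10 ± 0.11, adjusted p = 9.66e-05), while the Y-linked Kdm5d and Eif2s3y differed by −0.17 and −0.16 and were not called.

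The gate contrast in GFP-low cells shares no array with the one in GFP-high cells. The labels give the MessageAmp II kit for all 3 gated GFP-low arrays and an Affymetrix kit for all 3 ungated ones. Gate and kit therefore cannot be told apart in GFP-low cells, which also limits the difference between the contrasts. In GFP-low cells 1786 genes were higher (9.82%) and 1668 lower (9.17%) with the gate. Of the genes called in GFP-high cells, 774 were higher in both, 39.0% of the higher calls in GFP-high and 43.3% of those in GFP-low cells, and 624 were lower in both (34.6% and 37.4%). Another 242 were called in opposite directions, 133 of them higher in GFP-high cells. Over all genes the 2 contrasts correlated at r = 0.38 (Spearman's rho 0.34), across genes that are not independent replicates; both sets of gated arrays have the high 18S signal. The difference between the contrasts was called for 722 genes towards a higher value in GFP-high cells (3.97%) and 707 towards a lower one (3.89%), including all 242 opposite genes.

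The contrasts parted in the progenitor and neuron lists. In the test of the difference all 23 genes of G2 and M phase, 20 of 23 S phase genes and 17 of 24 radial glia genes were called towards a lower value in GFP-high cells, and 17 of 22 postmitotic neuron genes towards a higher one. In GFP-low cells the gated sort had 14 of 23 genes of G2 and M phase higher and 0 lower (median 0.92), 10 of 24 radial glia genes higher and 1 lower, and 13 of 22 postmitotic neuron genes lower and 0 higher. Prom1, not called in GFP-high cells, was 2.89-fold higher with the gate in GFP-low cells (10.17 ± 0.08 against 8.63 ± 0.27, adjusted p = 2.37e-05). Mapt was 1.88-fold higher in GFP-high cells and differed by −2.74 in GFP-low cells, a difference between contrasts of 3.65 (adjusted p = 1.42e-05). For Emx2 the contrasts were −1.25 and 1.10. Of the 14 interneuron genes 6 were higher and 0 lower in GFP-low cells, and the difference between contrasts was called for 0 of them.

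**Figure D4:**
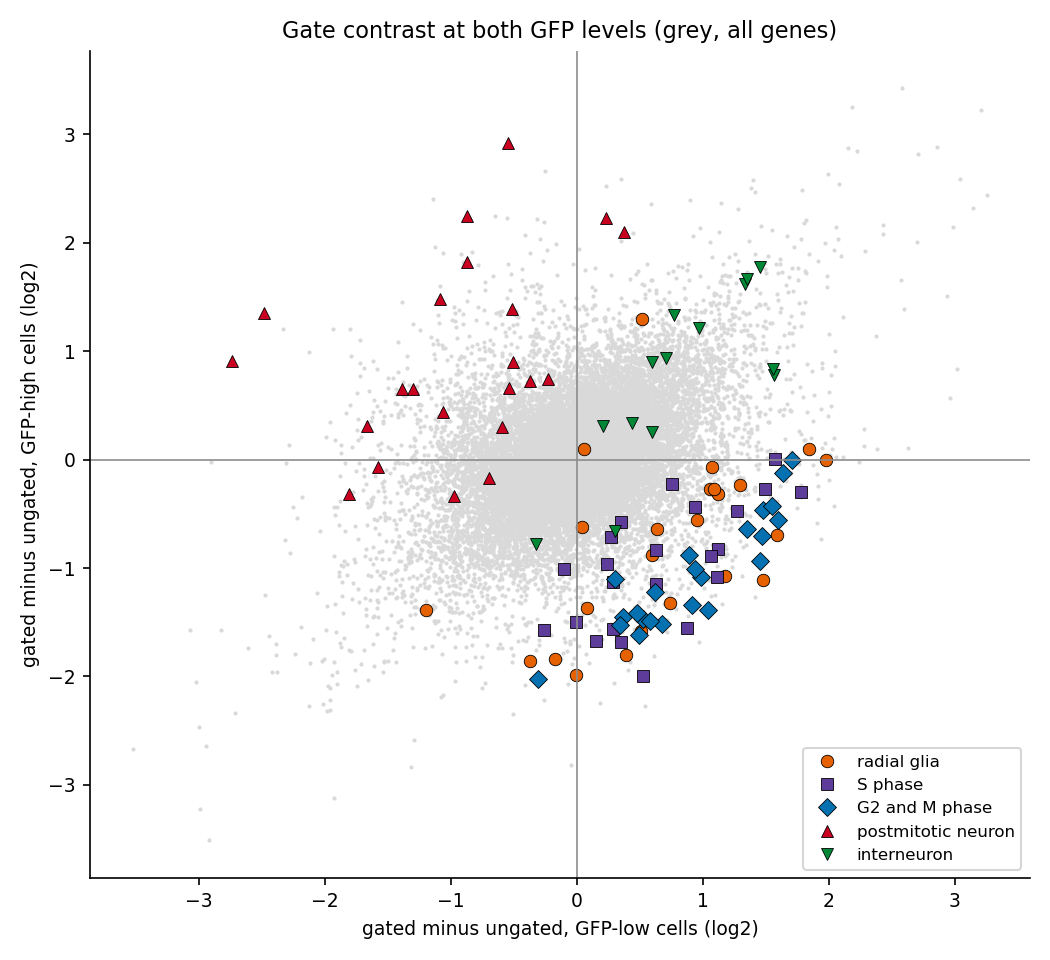
Log2 difference, gated minus ungated, of each gene in GFP-low cells (horizontal) and in GFP-high cells (vertical); grey points are all 18193 genes and coloured symbols the members of 5 lists. Most genes of S phase, of G2 and M phase and of radial glia lie at the lower right, postmitotic neuron genes mostly at the upper left, and most interneuron genes at the upper right.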

How the data were processed

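Total RNA of sorted cells was labelled with biotin and hybridised to Affymetrix mouse arrays, 1 per sample; RNA was isolated with an RNeasy kit and DNase, per the labels' protocols. The deposited values are linear intensities, 1 for each of 45101 probe sets, as the authors processed them; the software, and any target used for scaling, is not given in the sources used here. Trimmed at the 2nd and 98th percentiles, the signals of every array averaged 150.0. The number of arrays limits the precision.

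Probe sets with 1 gene symbol (34945) were kept, and for a gene with several (9010 of 18193 genes) the brightest on average stood for the gene. A pseudocount of 16 was added before taking log2, which understates the change of dim genes, and arrays were normalised by quantiles over 17 arrays. limma 3.58.1 in R 4.3.3 (lmFit, eBayes, two-sided) was fitted to all 17 arrays as 5 group means; Python 3.11.15 with matplotlib 3.10.9 drew the figures. The procedure was tested on simulated data. 34741 of the kept probe sets matched a RefSeq gene table, and some listed genes were not analysed here.

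The samples compared, the 33 gene lists and the tests were chosen with earlier results of these data known. Named genes were 8 fixed genes (Prom1, Eomes, Tubb3, Gfap, Fabp7, Slc1a3, Tfap2c and Pax6), the 10 largest rises and 10 largest falls among called genes whose arrays did not overlap and whose higher mean exceeded the median gene, and the same for genes also called with the kit as a term. To these came from each list, its up to 4 called genes of lowest p, and the 5 largest differences between gate contrasts in each direction. The text names a part of these, with further list members chosen after their values were seen. Alternatives were the kit as a term, only the 12 arrays of 1 kit, only 7 arrays, other scalings, pseudocounts, filters and probe set rules, array weights, the replicate number as a block, and leaving out arrays.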

Additional observations from a re-analysis of the deposited data

Results flagged for a closer look

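In the group of 4 gated GFP-high arrays some values stood apart from the other 3 by Dixon's criterion, which chance meets in about 1 of 20 such groups. Among the 95 named genes it was met by 2, fewer than 1 of 20, so these 2 are no more than chance would give. It was also met by 6 control or signal measures. Replicate 1 had a Gapdh 3′ minus 5′ difference of 0.54 and an Actb one of 0.89, both the lowest of the group, and the highest signals of the poly-A controls dap (4085), lys (634) and phe (1184). Replicate 2 had the highest median signal (39.0), and the lowest level of Jun (8.68, others 8.98 to 9.02). Slc1a3 was lowest in replicate 1 (7.61, others 8.40 to 8.51). Without gated replicate 1, 3398 genes were called in GFP-high cells.

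For 50 of the 95 genes named here, the gate contrast in GFP-high cells minus that in GFP-low cells passed limma's test of the difference. Over all 18193 genes 1429 passed it. Some named genes were picked for large differences in these same contrasts or after their values were seen, so the 2 shares are not alike. Negative values mean that the gated sort was lower, relative to the ungated one, among GFP-high cells than among the GFP-low. Among radial glia and progenitor genes the difference was −1.45 for Prom1, −1.49 for Fabp7, −1.98 for Ednrb, −2.19 for Nr2e1, −2.25 for Pax6, −2.09 for Sox2, −1.48 for Vim, −1.83 for Eomes, −1.66 for Tfap2c and −1.47 for Btg2.

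Genes of the cell cycle differed the same way. Values were −1.31 for Pcna, −2.43 for Mcm6, −1.82 for Mcm4, −2.53 for Uhrf1, −1.71 for Aurkb, −2.11 for Aurka, −1.99 for Cdk1, −1.82 for Tpx2, −1.71 for Cdc20 and −1.76 for Ccnb2. Cdc20 and Ccnb2 gave no call within GFP-high cells.

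Neuronal genes mostly differed the other way. The difference was 2.0 for Stmn3, 3.47 for Ina, 1.72 for Rtn1, 3.12 for Stmn2, 3.65 for Mapt, 2.69 for Syt1, 1.90 for Bcl11b, 0.98 for Dcx, 1.51 for Tbr1 and 1.49 for Tubb3. The Cajal-Retzius genes Calb2, Lhx1 and Ebf3 had −2.53, −2.19 and −1.66.

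Among signalling, patterning, junction and other genes the difference was −1.66 for Hes1, −2.03 for Notch2, −2.0 for Notch1, −1.29 for Fzd8, −1.86 for Etv5, −2.06 for Fgfr3, −2.34 for Emx2, −1.57 for Tjp1, −1.14 for Ift80 and −2.43 for Ccn1. It was −1.26 for Idi1, an enzyme of cholesterol synthesis. It was 1.41 for Dner, 1.66 for Dact1, 2.15 for Dusp6, 2.09 for Rspo3, 1.30 for Prkcz and 2.91 for the corepressor Runx1t1.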

How the results depend on the processing

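The count of 3793 genes called in GFP-high cells was 1737 with the kit as a term and 1933 on the 12 MessageAmp II arrays, where the lone ungated array is assumed to vary like the other groups; both rest on 1 ungated array. After the data were seen, 2 settings were added: with the Gapdh 3′ to 5′ difference as a covariate 1705 genes were called in GFP-high and 866 in GFP-low cells (of 3454), and without gated and ungated replicates 1 together 2507 in GFP-high cells. Leaving out 1 array of the groups compared gave 2770 to 3521 genes in GFP-high cells and 2397 to 3759 in GFP-low cells. For the difference of the contrasts it gave 1055 to 1746 (1429 with all arrays). Arrays with the same replicate number deviated from their group means with correlations of −0.00 to −0.02, so numbers were not taken as pairs; the replicate block gave 3272, 2863 and 1154 genes. With arrays centred on their median, GFP-high cells had 1569 higher and 1866 lower genes, and GFP-low cells 1240 and 1995 (main split 1786 and 1668); without normalisation these were 2130 and 1644, and 2028 and 1462. The mean of all probe sets turned Dcx to −0.12 (0.75 in the chosen probe set); the cause was not tested. Of 95 named genes 78 were called, and 51 of these kept their call in every alternative run that read them. With the Gapdh covariate 18 were lost. Whichever of the 7 GFP-high arrays was left out, 73 kept their call. Named genes were not read in the runs without 1 GFP-low array, and no run left out a single E18 array. The cause of the lower counts was not tested. Of 660 list medians under the alternatives, 145 moved by more than the spread between arrays. Medians ranged from −0.26 to 0.23 for basal progenitors, −0.31 to 0.28 for Notch and −0.27 to 0.26 for immediate early genes, so they have no settled sign; those of radial glia, S phase, G2 and M phase, postmitotic neurons and interneurons kept theirs.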

Other observations

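Genes of energy and lipid metabolism were called in both directions with the gate in GFP-high cells. Of all genes 10.9% were higher and 9.93% lower, and the higher count of the cholesterol synthesis list below is near that share. Of 43 oxidative phosphorylation genes 11 were higher and 8 lower (median 0.27), and 7 of the 43 lay on one side in the 7 gated E14 arrays, against the other 10. Uqcrc2, a core subunit of complex III, was 2.49-fold higher (11.57 ± 0.11 against 10.26 ± 0.05, adjusted p = 3.92e-06 from limma, 1 of 2 probe sets called) and was 1 of those 7. Ndufc1, a subunit of complex I, was 2.04-fold higher (adjusted p = 0.00141, 1 of 2 probe sets called). Subunits of complex II, chosen after their values were seen, went the other way: Sdhc, Sdhd and Sdha were 3.63-fold, 2.38-fold and 1.47-fold lower, with 1 of 2, 1 of 2 and 1 of 4 probe sets called (adjusted p = 1.53e-05, 0.00307 and 0.00932), and the call of Sdha was lost with the kit as a term (adjusted p = 0.154). Of 17 cholesterol synthesis genes 5 were lower and 2 higher: Srebf2, the regulator of the pathway, and Fdps, one of its enzymes, were 3.88-fold and 3.65-fold lower, both in all gated E14 arrays (differences of −2.38 and −1.93 in GFP-low cells). For Fdps 1 of 2 probe sets was called. Idi1, another enzyme, was 2.41-fold lower (adjusted p = 0.00161, 1 of 2 probe sets called) and differed by −0.01 in GFP-low cells, while the enzyme gene Fdft1 was 1.88-fold higher with 1 of 4 probe sets called.

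Of 17 glycolysis genes 2 were higher, near the 10.9% of all genes, and 5 lower. Ldhb, a lactate dehydrogenase subunit, was 2.76-fold higher with all 4 probe sets called (12.35 ± 0.32 against 10.89 ± 0.12), again in all gated E14 arrays, and Slc2a3, the neuronal glucose transporter, was 2.46-fold higher with 2 of 4 probe sets called. Hk2, a hexokinase, was 1.96-fold lower and lost its call with the kit as a term (adjusted p = 0.136). Of 44 ribosomal protein genes 5 were higher, again near the share of all genes, and 2 lower, with a median of −0.02. Rpl27a was 9.36-fold higher in the probe set used, but its other probe set was not called, and Rpl11 was 1.84-fold lower.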
